A study of Mus musculus with 15 samples.

Results

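Oxidative phosphorylation (OXPHOS) was examined through the promoters of its nuclear genes in 3 lists of H3K4me3 peaks. The genes were the nuclear protein-coding genes of the GRCm39 annotation whose symbol starts with Nduf, Uqcr or Atp5, or with Cox and a digit from 4 to 8, together with Sdha, Sdhb, Sdhc, Sdhd, Cyc1 and Cycs. This rule found 100 gene records with 99 symbols among 21757 nuclear protein-coding genes. Atp5po has 2 records, and the rule also takes in Cox5b-ps and Ndufb11b, copies of other members that the annotation lists as coding. There were 38 records for complex I, 8 for its assembly factors, 4 for complex II, 9 for complex III, 21 for complex IV, 19 for complex V and 1 for cytochrome c. Ndufa4 and Ndufa4l2 were placed in complex IV, where their proteins act, and 3 genes (Ndufa1, Ndufb11 and Cox7b) lie on the X chromosome.

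The study performed H3K4me3 ChIP–seq in mouse mBA cells, brown adipocytes that its methods describe as differentiated from immortalized preadipocytes and its labels as primary. The 12 ChIP samples were 4 of untreated wild-type cells (WT), 4 of wild-type cells given 2-hydroxyglutarate (WT + 2HG) and 4 of untreated cells that lack the mitochondrial protease CLPP (CLPP-KO), with 1 input sample for each condition. According to the methods, 2-hydroxyglutarate was given as octyl d-2HG at 500 µM for 72 h from early in differentiation, and preadipocytes were immortalized with the SV40 large T antigen. All cells grew in high-glucose medium without pyruvate. The CLPP-KO medium also held uridine, so genotype and uridine cannot be told apart in these lists. Peaks were called on the 4 replicates of a condition together. Each condition therefore has a single list, no spread between replicates can be given, and every comparison between lists is a description without a test. Where 3 values follow each other below, they are in the order WT, WT + 2HG, CLPP-KO. The WT list held 12342 peaks, the WT + 2HG list 14059 and the CLPP-KO list 15118. They hold no read counts. The study states a single nominal sequencing depth, and the depth that each sample reached is not known from the lists. The stated peak-calling command leaves out the X chromosome, yet the lists hold 276, 383 and 413 peaks there. Without the X-linked genes, 79, 81 and 84 OXPHOS genes were marked in place of the 81, 84 and 87 given below.

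The respiratory chain passes electrons from NADH through complex I, or from succinate through complex II, to ubiquinone, complex III, cytochrome c and complex IV, and complex V uses the resulting proton gradient to make ATP. Most subunits are encoded in the nucleus and are made in nearly every cell, while several complex IV subunits exist as a widely used isoform and an isoform restricted to tissues such as heart, skeletal muscle, brown fat or testis. Brown fat is rich in mitochondria, and its uncoupling protein UCP1 dissipates energy there as heat. H3K4me3, trimethylation of histone H3 at lysine 4, marks the start regions of active and poised genes and is most common at promoters rich in CpG dinucleotides. CLPP degrades proteins of the mitochondrial matrix, and 2-hydroxyglutarate inhibits enzymes that need α-ketoglutarate, among them histone demethylases.

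Promoter sequences of the complex IV isoforms are shown first, because none of the 8 restricted isoforms had a peak in any list. Of their 7 widely used counterparts, 5, 6 and 7 had one. The peaks of Ndufa4 and Cox7a2, the widely used genes printed here, stood low in their lists, as given below. The 4 restricted genes printed here are the lowest in CpG content among the 8 restricted isoforms, and the others are given with the CpG values. Each sequence is the 200 bases just before the start of the gene's canonical transcript, in GRCm39, 5′ to 3′ on the gene's own strand, with every CG in capitals. These windows lie outside all annotated exons. The first pair is Ndufa4 (chr6:11907497-11907696, minus strand, 9 CG), which had a promoter peak in all 3 lists, and Ndufa4l2 (chr10:127350618-127350817, plus strand, 3 CG), its hypoxia-induced relative, which had none. The second is the widely used Cox7a2 (chr9:79667163-79667362, minus strand, 10 CG), with a peak in WT + 2HG and CLPP-KO, and Cox7a1 of heart, muscle and brown fat (chr7:29883369-29883568, plus strand, 3 CG), with none. The last are Cox6a2 of heart and skeletal muscle (chr7:127805560-127805759, minus strand) and Cox8b of heart, muscle and brown fat (chr7:140480360-140480559, minus strand), which hold 1 CG each and had no peak.
Ndufa4: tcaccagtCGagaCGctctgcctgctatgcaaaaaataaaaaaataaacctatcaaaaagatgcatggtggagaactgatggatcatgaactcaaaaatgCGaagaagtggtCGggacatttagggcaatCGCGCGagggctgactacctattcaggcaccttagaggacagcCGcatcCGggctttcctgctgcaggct
Ndufa4l2: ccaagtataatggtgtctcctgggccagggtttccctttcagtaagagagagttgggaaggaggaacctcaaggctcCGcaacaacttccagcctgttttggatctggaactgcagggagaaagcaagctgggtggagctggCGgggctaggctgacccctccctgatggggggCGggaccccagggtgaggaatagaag
Cox7a2: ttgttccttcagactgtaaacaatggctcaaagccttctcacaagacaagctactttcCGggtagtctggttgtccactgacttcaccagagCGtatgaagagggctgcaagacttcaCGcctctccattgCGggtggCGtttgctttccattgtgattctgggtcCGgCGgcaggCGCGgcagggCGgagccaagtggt
Cox7a1: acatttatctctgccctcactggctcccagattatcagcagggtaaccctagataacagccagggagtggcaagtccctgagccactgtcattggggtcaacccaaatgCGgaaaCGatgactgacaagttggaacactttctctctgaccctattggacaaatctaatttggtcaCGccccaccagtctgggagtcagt
Cox6a2: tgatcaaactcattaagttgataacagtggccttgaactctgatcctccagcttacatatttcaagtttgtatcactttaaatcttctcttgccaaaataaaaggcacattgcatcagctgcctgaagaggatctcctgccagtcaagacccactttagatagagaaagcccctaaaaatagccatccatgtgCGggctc
Cox8b: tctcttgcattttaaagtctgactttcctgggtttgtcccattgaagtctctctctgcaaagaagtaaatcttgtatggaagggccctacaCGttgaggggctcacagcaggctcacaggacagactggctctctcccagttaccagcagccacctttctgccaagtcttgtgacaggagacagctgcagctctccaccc

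A gene was counted as marked when a peak overlapped the 2000 bp on either side of any of its transcript starts. Most OXPHOS genes were marked in every condition. In WT, 81 of the 100 records were marked (95% Wilson interval 72.2 to 87.5%), against 51.3% of all nuclear protein-coding genes. In WT + 2HG there were 84 (75.6 to 89.9%), against 56.5%, and in CLPP-KO 87 (79 to 92.2%), against 58.1%. All 3 lists marked 79 of the genes, against 50.7% of all coding genes, and 13 were marked in no list, against 40.6%. The intervals cover counting error over genes only and are not a spread between samples. All 4 complex II genes, cytochrome c (Cycs) and 16 or more of the 19 complex V records were marked in each list. Complex IV had the lowest share of marked records, with 10, 11 and 12 of 21 in WT, WT + 2HG and CLPP-KO, respectively.

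The complex IV count followed the isoforms. None of the 8 tissue-restricted isoforms was marked in any list, where 59.4% of all coding genes were marked in at least 1. Of their 7 widely used counterparts, 5, 6 and 7 were marked in WT, WT + 2HG and CLPP-KO, against 51.3%, 56.5% and 58.1% of all coding genes. With only peaks whose summit p was at most 1e-05, 4 of these 7 and none of the restricted isoforms were marked in at least 1 list, against 55.7% of all coding genes, a share close to that of the 7. Leaving out genes with a shared peak also left 4 marked, since it takes Cox4i1, Ndufa4 and Cox7b out of the count, against 52.6% of all coding genes that share no peak. The unmarked genes were Cox4i2 of lung and pericytes, Cox6a2 of striated muscle, Cox6b2, Cox7b2 and Cox8c of testis, Cox7a1 and Cox8b of muscle and brown fat, and the hypoxia-induced Ndufa4l2. Their nearest peak in WT lay 14070 bp from a start for Cox4i2, 9474 bp for Cox7a1 and 17681 bp for Cox8b. For Ndufa4l2 it lay 2549 bp away, and a window of 3000 bp would have counted that gene as marked, the only such change among the restricted isoforms. Cox7a1 and Cox8b are forms typical of brown fat, and several other genes that define brown adipocytes were also without a peak. Ucp1, Dio2, Ppargc1a and Elovl3 had no promoter peak in any list, Cidea had 1 in WT + 2HG (percentile 21.3) and CLPP-KO (33.6), and Ebf2 in CLPP-KO (22.2). Of the 6 markers of adipocytes in general, Adipoq, Fabp4 and Cidec had none in any list. Pparg, their transcriptional regulator, was marked in WT (17), WT + 2HG (70.4) and CLPP-KO (37.3), while Plin1 and Lpl were marked in WT + 2HG and CLPP-KO. Some genes that define the labelled cell type, Ucp1 and Adipoq among them, were thus without a promoter peak in every list. Pparg was marked in each list, and Plin1, Lpl, Cidea and Ebf2 in some. The study reports a strong rise of UCP1 in both WT and CLPP-KO mBA cells. H3K4me3 peaks do not measure transcription.

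Markers of the other cell types gave 4, 4 and 5 of 6 fibroblast or preadipocyte genes, led by Pdgfra (78.3, 85.8 and 79.3). Skeletal muscle markers numbered 2, 2 and 3 of 6, led by Mylpf (98.1, 97.1 and 95.9), with Myog, Acta1 and Myh1 in no list. Endothelial markers gave 1 of 6 in each list (Kdr) and macrophage markers 0 of 6. Of all coding genes, 51.3%, 56.5% and 58.1% were marked. The part of these cell types in the OXPHOS values was not tested.

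The widely used isoforms ranged from the top to the bottom of the lists. To place a gene, its strongest promoter peak was ranked by area under the curve among all peaks of its own list, since areas are not scaled between lists. A percentile of 100 is the largest area, and the percentile is a rank, not an amount of methylation. Cox4i1 stood at 97.6, 97.5 and 98.5, with a peak that also lies within reach of the start of its divergent neighbour Emc8. Cox6a1 stood at 77.4, 78.3 and 78.2, and Cox8a at 48.7, 42.5 and 56.4. Ndufa4 was near the bottom, at 7.28, 14.6 and 8.54, and shared its peak with Phf14. Cox6b1, whose protein sits at the interface of the complex IV dimer, stood at 8.31 in WT and 6.09 in CLPP-KO and was unmarked in WT + 2HG. Cox7a2 was unmarked in WT and stood at 8.68 and 4.75 in the other lists. Cox7b was marked in WT + 2HG (0.0142) and CLPP-KO (10.3) only through a peak that it shares with Magt1, far upstream of its canonical start (positions -4472 to -3849 in WT + 2HG). The WT + 2HG area of this peak, 200.07, was close to the smallest area of the list (200.033). The complex IV genes thus included values near both ends of the lists in every condition.

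**Figure D1:**
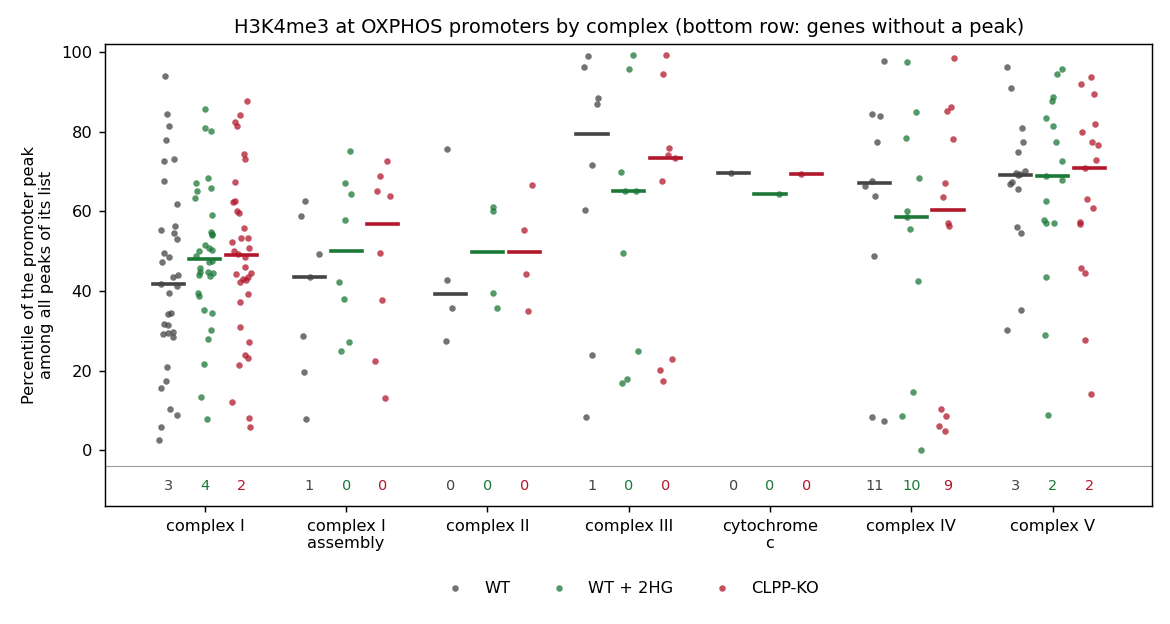
Percentile of the strongest promoter peak of each OXPHOS gene among all peaks of its list (vertical axis), by complex, for WT, WT + 2HG and CLPP-KO. Points are genes, bars are medians over marked genes, and the numbers at the bottom count genes without a peak, which were most frequent in complex IV (11, 10 and 9 of 21).

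Across all marked OXPHOS genes the median percentile was 54.7 in WT (95% order-statistic interval 43.4 to 65.5), 55.1 in WT + 2HG (47.4 to 61) and 56.4 in CLPP-KO (48.5 to 63.6). Over all marked coding genes it was 59.3, 60.6 and 62.1, inside these intervals. Peaks of OXPHOS genes were narrower, with median widths of 790, 866.5 and 843 bp, beside 901.0, 1002.0 and 990.0 bp for all marked coding genes. The summit lay a median of 131 bp downstream of the nearest start in WT, 117.5 bp with 2HG and 115 bp without CLPP, beside 138, 120 and 127 bp.

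Complexes differed in where their genes stood within the WT list. The median percentile over marked genes was 79.3 for complex III, 69.2 for complex V and 67 for complex IV, and 41.8 for complex I, 43.4 for its assembly factors and 39.2 for complex II. Genes of a complex are not replicates, and the intervals of the medians overlapped for all pairs but complex I (31.3 to 53) and complex V (56 to 77.4). In WT + 2HG the medians of complexes I and V were 48.1 and 68.9, and in CLPP-KO 49 and 70.8. Within complex I, the 8 subunits of the NADH-oxidizing N module had medians of 37.9, 50.3 and 46.9, the 4 marked subunits of the ubiquinone-reducing Q module 31.2, 34.9 and 34.1, and the remaining subunits, mostly of the membrane arm, 43.9, 50.1 and 50.8. The Q module was thus lowest in each list, with few genes behind it.

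In complex III, Uqcrh, the hinge protein, had the highest percentile of any OXPHOS gene (99.1, 99.1 and 99.2), through a peak upstream of its canonical start (-2019 to -247 in WT). Just downstream of the start of Uqcrh there was no peak in WT and a weak one in WT + 2HG (8.37) and CLPP-KO (2.3). Cyc1, the cytochrome c1 subunit, was next within complex III at 96.2, 95.6 and 94.5. At the other end of the same complex, the small subunit Uqcrb stood at 8.37, 17.8 and 17.3. In complex V, Atp5pf, coupling factor 6, was highest (96.3, 95.7 and 93.6) and Atp5mf, a membrane subunit, lowest in WT (30.2, 28.9 and 27.6). The c-ring subunit, which several genes encode as the same mature protein, was marked through Atp5mc3 (91, 94.4 and 92) and Atp5mc2 (54.7, 62.5 and 63), while Atp5mc1 was unmarked in each list. In complex I, Ndufb10 was highest in WT (93.9, 80.8 and 87.8), but through a peak at positions 3191 to 4952 from its canonical start, while the peak at that start stood at 18.8, 29.3 and 29.9. Ndufb3 was next (84.5, 65.8 and 62.4), and Ndufa9, an accessory subunit next to the Q module, was lowest (2.63, unmarked and 8.04). Among the assembly factors Ndufaf6 was highest in WT (62.6, 57.8 and 68.9) and Ndufaf1 lowest (7.79, 24.9 and 13.1). In complex II the iron-sulfur subunit Sdhb stood at 75.6, 61 and 66.6, and the flavoprotein Sdha at 27.3, 35.6 and 44.2. Cycs stood at 69.6, 64.3 and 69.3. The strongest and weakest marked genes of complexes I, III and IV were over 90 percentile points apart in WT. For complexes I and III this rests on the peaks of Ndufb10 and Uqcrh, which do not cover the canonical start. The WT range was smaller for complex II (27.3 to 75.6), the assembly factors (7.79 to 62.6) and complex V (30.2 to 96.3).

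Many OXPHOS genes have a start close to that of another coding gene, so that a single peak reaches both. In WT the strongest peak was shared in this way by 37 of the 81 marked OXPHOS genes, or 45.7% (35.3 to 56.5%), against 24.8% of all marked coding genes. The counts were 40 of 84 in WT + 2HG, against 24%, and 41 of 87 in CLPP-KO, against 23.7%. Several of the highest genes were among them: Uqcrh shares its peak with Lrrc41, Cox4i1 with Emc8, Atp5pf with Gabpa, which encodes a subunit of a transcription factor of respiratory genes, and Ndufb10 with the ribosomal protein gene Rps2. The peaks of Cox4i1 and Atp5pf cover the gene's own canonical start as well, and the lists do not say which of the neighbours such a mark belongs to. Those of Uqcrh and Ndufb10 do not cover it, as given above. The strongest peak lay more than 1000 bp from the canonical start for 3 OXPHOS genes in WT (Ndufb10, Atp5f1d and Atp5if1) and for 4 in each other list, where Cox7b was added. OXPHOS genes that share a peak in at least 1 list had a median percentile of 49.5 in WT (39.4 to 69.5), and those that share none 55.7 (43.9 to 66.3), so the intervals overlapped.

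Relative to WT, 5 OXPHOS genes were gained in WT + 2HG, that is, marked there and not in WT, against 5.64% of all coding genes, and 6 were gained in CLPP-KO, against 7.2%. These shares are close to the background. The counts moved with the peak definition: with summit p of at most 1e-05, 11 genes were gained in WT + 2HG, against 6.98%, and 0 lost, against 0.152%. Counting a strongest peak without 50% reciprocal overlap with a WT peak as gained gave 11 as well, against 9.36%. For CLPP-KO the same definitions gave 8 gained genes each, against 7.95% and 10.9%. The WT + 2HG and CLPP-KO comparisons use the same WT list, so the genes they have in common are not counted as agreement. The genes gained in both were Atp5me, Cox7a2, Cox7b, the complex III subunit Uqcr10 and Ndufaf7, a methyltransferase that acts on a Q-module subunit during assembly. The complex I subunit Ndufa3 was gained in CLPP-KO only (percentile 12.1). All stood in the lower part of the lists. In WT + 2HG, Ndufaf7 (27.2) stood highest and Cox7b (0.0142) lowest. In CLPP-KO, Ndufaf7 (22.4) and Uqcr10 (20.1) stood highest and Cox7a2 (4.75) lowest. Atp5me, which helps ATP synthase to form dimers, stood at 8.78 in WT + 2HG and 14 in CLPP-KO. In the other direction, Cox6b1 and Ndufa9 were lost in WT + 2HG, against 0.469% of all coding genes, and both were weak in WT (8.31 and 2.63). No OXPHOS gene was lost in CLPP-KO, against 0.345%. The longer lists hold more weak peaks, and when each list was limited to the length of the WT list, 2 genes were gained in WT + 2HG (against 3.54% of all coding genes) and 2 in CLPP-KO (against 4.06%), while 3 were lost in WT + 2HG (against 1.18%) and 6 in CLPP-KO (against 1.72%).

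At some genes the borders of the mark differed between lists while the gene stayed marked. In WT, the cytochrome c gene Cycs had a peak from -463 to -182 and another from 24 to 816 relative to its start. In WT + 2HG a single peak ran from -581 to 921, and in CLPP-KO from -568 to 691. Atp5pb and Atp5pd, which encode subunits of the peripheral stalk of ATP synthase, and Ndufaf3, an early complex I assembly factor, had the same arrangement. Ndufaf3 had WT peaks of 554 and 849 bp, a single peak of 1898 bp in WT + 2HG and one of 1660 bp in CLPP-KO, and stood at percentiles 28.6, 75 and 72.5. Ndufaf5 and Ndufaf8 had 2 WT peaks overlapped by a single peak in WT + 2HG and not in CLPP-KO. In all, 6 of the 79 genes marked in every list had a WT + 2HG peak that overlapped 2 or more WT peaks. The share was 6.7% of all coding genes marked in every list. For CLPP-KO, 4 genes had such a peak, against 6.48%. The reverse, a WT peak that overlapped 2 or more peaks, was seen for 1 gene in WT + 2HG (Ndufb5), against 1.18% of all common genes. In CLPP-KO it was seen for 2 (Ndufb5 and Ndufa7), against 0.871%. These genes were found after the values were seen, and their share did not exceed the background by more than the counting error. More than 1 promoter peak was present at 14 OXPHOS genes in WT (17.3%, against 17.4% of marked coding genes), 16 in WT + 2HG (against 16.3%) and 16 in CLPP-KO (against 16.8%).

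**Figure D2:**
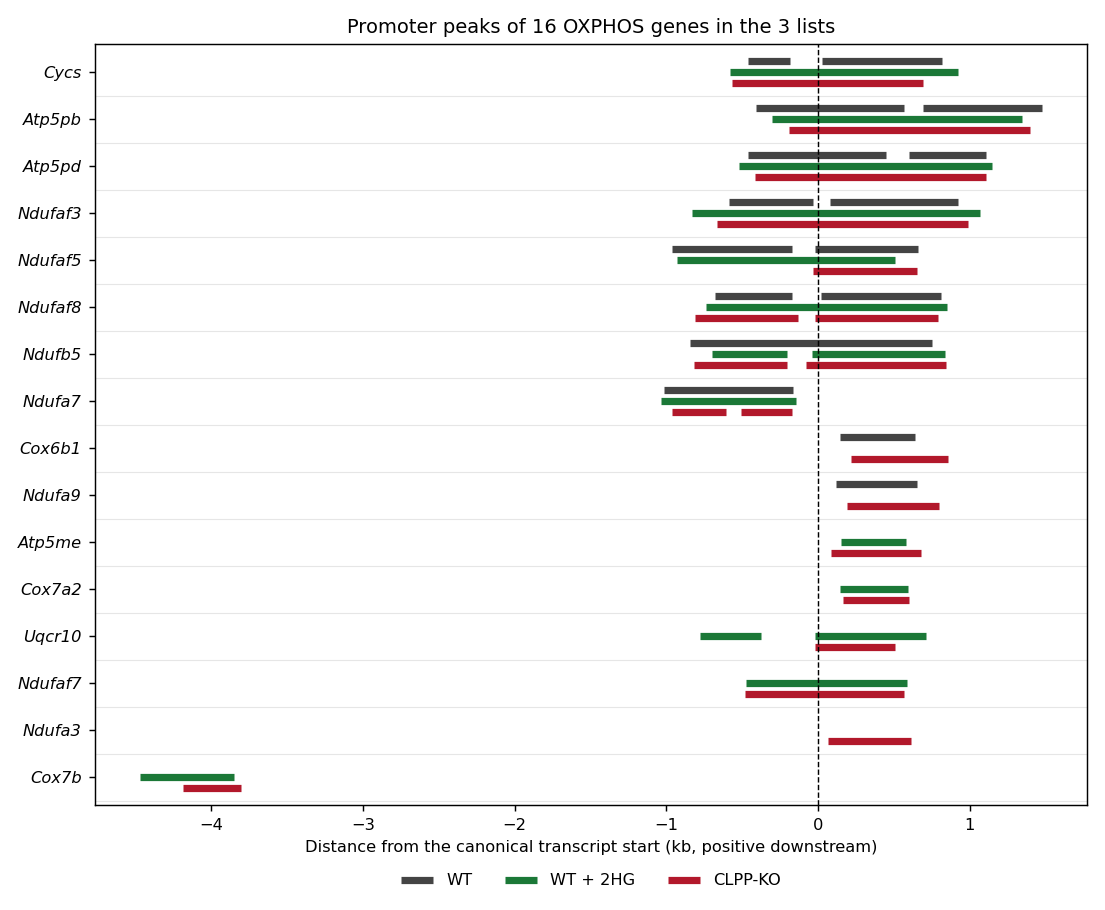
Promoter peaks (bars) of 16 OXPHOS genes in WT, WT + 2HG and CLPP-KO, drawn along the gene's strand against the distance from its canonical transcript start in kb. The upper 6 genes have 2 WT peaks where WT + 2HG has a single one, Ndufb5 has the reverse in both other lists and Ndufa7 in CLPP-KO only, and the lower genes lack a peak in at least 1 list.

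Ranks were then compared between lists. To remove the effect of list length, the areas of the 11021 coding genes marked in all 3 lists were ranked among themselves in each list, and the WT percentile was subtracted. In this ranking, more of the 79 OXPHOS genes stood lower than higher in both other lists. In WT + 2HG, 26 stood higher and 53 lower than in WT, with a median difference of -1.53 points (-8.35 to -0.608), where 48.5% of all common genes stood higher and their median was -0.263. In CLPP-KO, 25 stood higher and 54 lower, with a median of -2.95 points (-5.44 to -0.789), where 47.7% of all common genes stood higher and their median was -0.517. The median rank of the OXPHOS genes among common genes was 44.7, 39.9 and 39.5. Both comparisons subtract the same WT values. A lower rank is not a loss of signal, and 55 and 58 of these 79 genes had a wider peak than in WT in WT + 2HG and CLPP-KO, shares of 69.6% and 73.4% beside 71.8% and 71.5% of all common genes. The sign of the median depended on the measure. Ranked by summit −log10 p in place of area, the WT + 2HG median was -2.45, with 37 genes higher and 42 lower, and the CLPP-KO median 0.309, with 41 higher and 38 lower. Ranked among all peaks of a list, which grow in number from WT to CLPP-KO, the medians were 1.06 (WT + 2HG) and 1.51 (CLPP-KO). By this measure 44 genes stood higher and 35 lower in WT + 2HG, and 52 higher and 27 lower in CLPP-KO. Over all common genes the medians were 3.69 and 5.3, so the OXPHOS medians were below those of all common genes by this measure too. By summit −log10 p the medians over all common genes were -0.0363 (WT + 2HG) and 0 (CLPP-KO).

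The median difference was further from 0 for OXPHOS genes that share their peak with no other coding gene. Of these 42, 33 stood lower in WT + 2HG, with a median of -9.01 points (-12.3 to -2.71), and 32 in CLPP-KO, with a median of -3.95 points (-9.53 to -1.81). Over all common genes without a shared peak the medians were -0.0363 and -0.141. The 37 OXPHOS genes with a shared peak had medians of -0.163 (-1.34 to 4.63) and -1.39 (-5.08 to 1.24), beside -1.03 and -1.77 for all common genes with a shared peak, values that lie inside these intervals. Of the 11021 common genes, 5669 stood lower in WT + 2HG and 5762 in CLPP-KO. By complex, all 8 complex III and all 9 complex IV genes marked in every list stood lower in WT + 2HG than in WT. Their medians were -4.22 and -11.1 points, and single differences ranged from -53.1 to only -0.0907 and from -25.1 to only -0.572. In CLPP-KO, 7 and 8 of them stood lower, with medians of -3.64 and -3.13. Their median ranks in WT among common genes were 73.8 and 59.4, beside 61.3 for complex V, whose median differences were -0.98 and -4.27. Those of the 4 complex II genes were -6.85 and -7.98. In complex I, 21 and 20 of 34 genes stood lower, and in complex V 9 and 12 of 16. Complex I assembly factors stood higher in 5 of 7 cases in WT + 2HG and in 3 of 7 in CLPP-KO.

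Changes of at least 20 points, a size chosen after the values were seen, were counted in each direction. In WT + 2HG, 11 OXPHOS genes stood at least that much lower, against 7.56% of all common genes, and 3 higher, against 7.98%. In CLPP-KO, 10 stood lower, against 7.28%, and 3 higher, against 8.21%. The lower genes made up 13.9% of the OXPHOS genes in WT + 2HG (7.96 to 23.2%) and 12.7% in CLPP-KO (7.02 to 21.8%), so the interval for CLPP-KO includes the background. The largest negative difference in WT + 2HG was that of the complex III subunit Uqcrq, which shares its peak with Gdf9, with -53.1 points in WT + 2HG and -32.5 in CLPP-KO. Its percentiles among all peaks were 87, 49.6 and 67.5. The ε subunit of ATP synthase, Atp5f1e, differed by -33.8 points (WT + 2HG) and -20.2 points (CLPP-KO). The complex I subunit Ndufb3, which shares its peak with Hycc2, differed by -28.8 and -36.8 points, and Uqcrfs1, the Rieske iron-sulfur protein, by -28.1 and -22.3. In CLPP-KO the small membrane subunit Atp5mj differed by -25 points and the N-module subunit Ndufs4 by -24.8. The width of the Uqcrq peak, 756, 709 and 765 bp, was close in the 3 lists.

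The 4 largest positive differences in each list were at genes with a shared peak, as were some of the largest negative ones (Uqcrq and Ndufb3). Among genes that share none, the largest in WT + 2HG were those of Ndufb7 (18.8 points, and 8.3 in CLPP-KO) and Ndufc1 (16.2, and -1.81 in CLPP-KO), and the largest in CLPP-KO was that of Ndufa6 (12.9 points, and -9.59 in WT + 2HG). Ndufaf3, which shares its peak with Impdh2, stood 46.9 points higher in WT + 2HG and 40.7 in CLPP-KO. In those lists, but not in WT, its strongest peak was also shared with Dalrd3. Atp5mk, a small membrane subunit of ATP synthase that shares a peak with Pdcd11, stood 32.6 points higher in WT + 2HG and differed by -1.39 points in CLPP-KO. Ndufa13, a complex I subunit that shares a peak with Tssk6 and Yjefn3, stood 14.8 points higher in WT + 2HG and 37.3 in CLPP-KO. Atp5pb, which shares its peak with Wdr77, stood 22 points higher in both lists, where a single peak overlapped both of its WT peaks. Sdhd, a membrane anchor of complex II that shares a peak with Timm8b, stood 19.9 and 10.1 points higher, and the assembly factor Ndufaf2, which shares one with Ercc8, 17.7 and 13.7. With 1 list for each condition, none of these single-gene differences can be set against a spread between replicates.

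**Figure D3:**
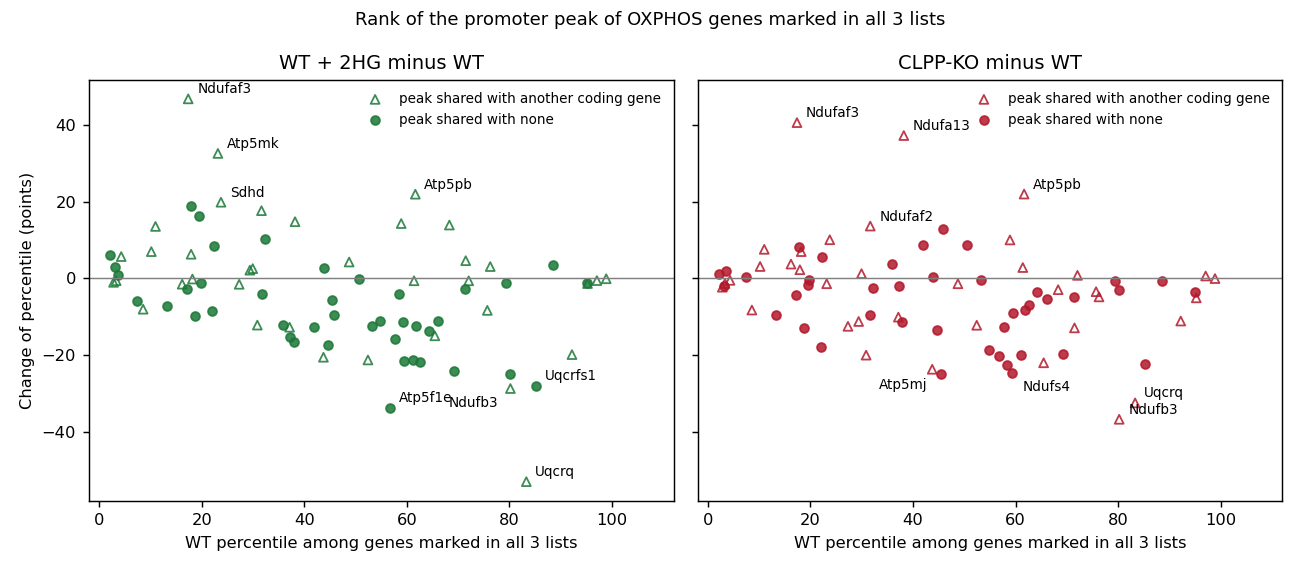
Change of the promoter peak's percentile from WT (vertical axis, points) against the WT percentile (horizontal axis) for the 79 OXPHOS genes marked in all 3 lists, in WT + 2HG (left) and CLPP-KO (right). Percentiles are among the 11021 common genes, open triangles are genes that share a peak with another coding gene, and the 4 largest differences in each direction are named. Most points lie below 0 (53 and 54 of 79), and the named points above 0 are open triangles, as are Uqcrq and Ndufb3 below 0.

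The CpG content of the promoters differed between marked and unmarked OXPHOS genes. It was measured as the observed number of CG over that expected from the C and G content, from 250 bases before to 50 after the canonical start. The median was 0.742 for all OXPHOS genes, beside 0.517 for all coding genes. It was 0.796 for the 79 genes marked in every list, 0.725 for the 8 marked in 1 or 2 lists and 0.391 for the 13 marked in none. Over all coding genes the medians were 0.744, 0.557 and 0.196. From 100 bases before to 50 after the start, the OXPHOS medians were 0.862, 0.872 and 0.481, so the first 2 classes changed places in the shorter window while the unmarked genes stayed lowest. Cox8b (0.115), Ndufa4l2 (0.133) and Cox6a2 (0.14), whose sequences are printed above, were among the lowest, whereas Cox7a2 had 0.845 and Cox7a1 0.304. The isoform classes overlapped: the widely used Cox7b (0.346) lay below the restricted Cox6b2 (0.515), Cox4i2 (0.49), Cox7b2 and Cox8c (0.391 each). Atp5mc1 was an exception, unmarked with 0.764. Atp5mf was marked in every list with 0.104, but its peaks lay downstream of the window measured. They ran from 454 to 1100 in WT, 317 to 1220 in WT + 2HG and 464 to 1230 in CLPP-KO. The Cox7b peak lay far upstream of the window, as given above. For Atp5mf and Cox7b the CpG value is therefore not that of the marked region.

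**Figure D4:**
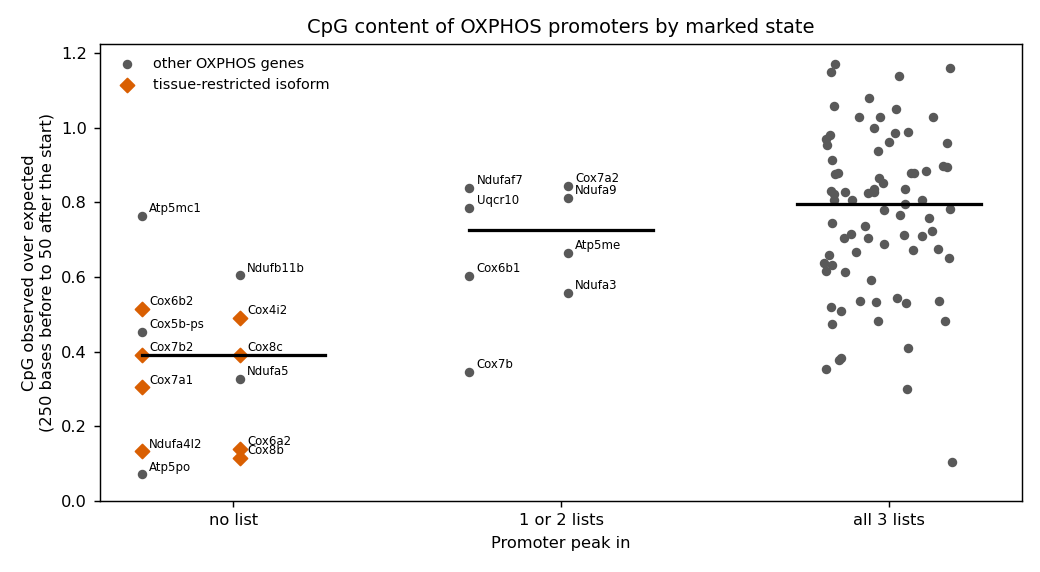
CpG observed over expected in the 300 bases around the canonical start (vertical axis) for OXPHOS genes with a promoter peak in no list, in 1 or 2 lists and in all 3 lists. Points are genes, diamonds are tissue-restricted isoforms of complex IV and bars are medians (0.391, 0.725 and 0.796); all diamonds lie in the group without a peak.

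Motifs of factors known to act on respiratory genes were searched as exact letters on both strands of the same window. The NRF1 motif, CGCANGCG, was present at 26 of 100 OXPHOS promoters, beside 10.3% of all coding promoters. It was at 24 of the 79 promoters marked in every list (30.4%) and at 0 of the 13 marked in none. By complex it was found at 4 of 9 complex III, 7 of 19 complex V, 8 of 38 complex I and 1 of 21 complex IV promoters. The ETS motif bound by GABPA, CCGGAAG, was present at 16 OXPHOS promoters, beside 10.3% of all, and among genes marked in every list at 19%, beside 15.9%. The SP1 motif GGGCGG was at 45 (beside 42.5%), but among genes marked in every list it was at 48.1% of OXPHOS promoters, beside 63.4%. Over all OXPHOS promoters there were 2 with the YY1 motif AANATGGCG (beside 2.28%), 1 with the ERR motif TCAAGGTCA (beside 0.473%) and 13 with TATAAA (beside 13.2%). The NRF1, ETS, SP1 and YY1 letters themselves hold CG, no motif contains another, and over all coding promoters the share with NRF1 was 16.7% for genes marked in every list and 2.82% for genes marked in none. A match is a run of letters and not a bound site. Sites of genes described above are shown with the motif in capitals and 6 bases on either side, 5′ to 3′ on the gene's strand. They lie at chr6:50543597-50543616 for Cycs, chr5:115487165-115487184 for Cox6a1, chr13:74498443-74498462 for Sdha and chr9:50515214-50515233 for Sdhd, all on the minus strand of GRCm39, with the ERR letters, in reverse complement, at chr9:50515099-50515119 in Sdhd.
Cycs NRF1: ctagctCGCATGCGcgcgca
Cox6a1 NRF1: acggggCGCATGCGcgctct
Sdha NRF1: acagggCGCAGGCGcaccac
Sdhd NRF1: ggggtgCGCACGCGcggtgg
Sdhd ERR: gtagagTGACCTTGAgccctc

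Genes outside the rule that serve the same complexes were counted alongside. Of 44 further assembly factors, 36, 42 and 41 were marked, and 36 in every list, against 51.3%, 56.5%, 58.1% and 50.7% of all coding genes. For complex IV they were 18, 20 and 20 of 20, with Cox16 and Coa3 unmarked in WT, and for complex III 4, 6 and 6 of 6, with Uqcc1 and Uqcc3 unmarked in WT. Complex V assembly factors gave 3 of 4 in each list. Cyct, the testis form of cytochrome c, was unmarked throughout. Of 8 regulators of respiratory gene transcription, 7 were marked in every list, against 50.7% of all coding genes. Yy1 stood at 99.8, 99.9 and 99.9, Nrf1 at 88.4, 95.7 and 95.7, Ppargc1b at 94.7, 98 and 99, and Esrra at 49.7, 62.6 and 49.3. Ppargc1a, the coactivator of mitochondrial biogenesis in brown fat, had no promoter peak in any list, as given above.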

How the data were processed

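H3K4me3 ChIP–seq of 12 samples, 4 per condition, and 3 inputs gave 3 deposited peak lists. Per the labels and methods, the authors trimmed reads with fastp 0.23.4, mapped them to GRCm39 with BWA 0.7.17 and called peaks with Genrich 0.6.1 on the 4 replicates of a condition together. In the deposited lists the signal of a peak is the authors' area under the curve, not scaled between lists, and the deposited −log10 p is that of the summit, combined over replicates by the authors. The deposited summit offset, another value, is in bp from the peak's start. The q field is not filled. The stated minimum area is 20, while the smallest areas are 200.022 in the WT list, 200.033 with 2HG and 200.042 without CLPP.

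Starts came from GENCODE M39. A promoter peak overlapped the 2000 bp on either side of any transcript start by at least 1 bp, and the strongest one had the largest area. Percentiles were computed within a list, and for comparisons among genes marked in all 3 lists. Shares have 95% Wilson intervals and medians 95% binomial order-statistic intervals. Both cover counting over genes only. For the 4 complex II genes the interval of the median is the full range, which falls short of 95% coverage. Assignments were tested on simulated data, and 0 gene and peak pairs differed from bedtools 2.31.1. Sequences were read from the GRCm39 genome, where 0 peaks lay beyond a chromosome's end. Python 3.11.15, pandas 2.3.3 and scipy 1.17.1 were used. The depth of the libraries is unknown from the lists.

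The genes and gene lists were chosen with earlier results of these data known. Named were all genes not marked in every list, isoform pairs, the highest and lowest WT percentile of each complex, the 4 largest positive and negative differences in rank, and genes with 2 or more promoter peaks. Other members are named as examples after their values were seen. Alternatives changed the peak threshold, list length, window, starts, overlap, ranking measure and shared peaks.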

Additional observations from a re-analysis of the deposited data

Results flagged for a closer look

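The mitochondrial chromosome, which encodes 13 OXPHOS subunits and lies outside the nuclear genes described above, had 11 peaks in the CLPP-KO list and 0 in the other lists. These peaks stood out because the WT list has none. The CLPP-KO peaks covered 4221 bp and overlapped 6 of the 13 genes, mt-Nd1, mt-Co1, mt-Co2, mt-Co3, mt-Nd5 and mt-Cytb. Their areas were low in the list, with a median percentile of 10.7 and a highest of 39.6. Mitochondrial DNA carries no histones. The study's methods state that this chromosome was left out of peak calling, and the lists nonetheless hold these peaks. The number of mitochondrial reads in ChIP and input samples is not in the lists, and its part in the result was not tested.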

How the results depend on the processing

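Of 259 values recomputed under an alternative, 236 moved by less than their interval, or by less than 1.5 times for a count, 20 moved further and 3 changed sign. Leaving out the OXPHOS genes that share a peak left 44 of 59 marked in WT, 44 in WT + 2HG, 46 in CLPP-KO and 42 in every list, against 44.6%, 49.8%, 51.5% and 44.1% of all coding genes that share no peak, with 2 gained in WT + 2HG (against 5.56%), 2 in CLPP-KO (against 7.16%) and 4 widely used isoforms marked (against 52.6%), and took the median rank difference in WT + 2HG to -9.01. With summit p of at most 1e-05 alone, 11 genes were gained (against 6.98% of all coding genes) and 0 lost (against 0.152%) in WT + 2HG. Under this threshold 4 widely used isoforms were marked in at least 1 list, against 55.7% of all coding genes. With lists of equal length, 2 genes each were gained (against 3.54% in WT + 2HG and 4.06% in CLPP-KO), 3 were lost in WT + 2HG (against 1.18%) and 6 in CLPP-KO (against 1.72%). Asking for 50% reciprocal overlap with a WT peak gave 11 gained in WT + 2HG, against 9.36% of all coding genes. A window of 3000 bp marked 1 restricted isoform, against 59.9% of all coding genes in at least 1 list. Ranking among all peaks of a list turned the median rank difference to 1.06 (WT + 2HG) and 1.51 (CLPP-KO). These values were still below the 3.69 and 5.3 of all common genes. Ranking by summit −log10 p turned it to 0.309 in CLPP-KO, beside 0 for all common genes. With starts of protein-coding transcripts only, the summit lay 162.5 bp (WT + 2HG) and 170 bp (CLPP-KO) downstream. With 100 bases before the start, CpG observed over expected was 0.83, the order of marked classes turned (0.862 in every list, 0.872 in 1 or 2 lists) and TATAAA was present at 5% of promoters. Apart from the change in list length and in genes counted that these alternatives make by construction, the cause was not tested. A window of 500 bp around the canonical start, leaving out the second Atp5po record, Cox5b-ps and Ndufb11b, and leaving out the X-linked genes were chosen after seeing the data, and their values stayed within the same limits. No paired analysis was possible because each condition has 1 pooled list, and for the same reason no replicate could be left out. The lists give no coverage, so weak and absent peaks cannot be separated by it.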
